A study of Mus musculus with 9 samples.

Results

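The 37 genes described here encode the enzymes of cholesterol and fatty acid synthesis together with the proteins that control the 2 pathways or move, store and take up their products. They were chosen by gene symbol from the 22154 mouse genes of the coding reference on which the reads had been quantified, and 35 of the 37 passed the filter on low counts, as did 11165 genes in all. The desaturase genes Fads1 and Fads2 did not pass. The genes fell into 6 roles, with 6 members in mevalonate and isoprenoid synthesis, 9 in the conversion of squalene to cholesterol, 5 in the control of sterol regulatory element binding proteins (SREBPs), 4 in fatty acid synthesis, 6 in elongation and desaturation, and 7 in the liver X receptor (LXR) response, sterol transport, storage and lipid uptake.

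RNA-sequencing was performed on splenic B cells of 9 C57/BL6NTac mice, with 3 mice per group and 1 library per mouse. Eµ-MTCP1 mice (Z2551, Z2606 and Z2641) came from founder line Z36 and carried human MTCP1 under a heavy chain variable region promoter and the Eµ enhancer, inserted in an intron of Fam168a, and Eµ-TCL1 mice (B4376, B4437 and C1594) carried human TCL1. Wildtype mice (Z2754, Z2755 and Z2785) were littermates that lacked the human MTCP1 transgene. Both transgenic groups were age-matched animals with advanced disease, so that transgene and leukemic transformation cannot be told apart, and B cells were enriched with a magnetic pan B cell kit rather than sorted for the leukemic clone.

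Libraries held 6447542 to 8033303 reads assigned to genes of the coding reference. The deposited normalized log2 value of human MTCP1 was 11.1 to 12.3 in the Eµ-MTCP1 mice and 5.85 to 6.19 in the others, and that of human TCL1A was 14.9 to 15.6 in the Eµ-TCL1 mice and 6.04 to 6.96 in the others. All 7 B cell markers examined were detected in every library, with a summed level of 7487 to 11150 CPM (read counts scaled for library size and composition). The libraries of wildtype mouse Z2755 and Eµ-MTCP1 mouse Z2641 stood apart in 8 neutrophil genes, which summed to 4968 and 2756 CPM against 29.8 to 436 CPM in the other mice. Z2755 was also the only library on lane 1, the rest having been on lane 5.

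Cells obtain cholesterol by making it from acetyl-CoA through mevalonate and squalene or by taking up lipoproteins. When sterols run low in the endoplasmic reticulum, Scap carries the SREBP precursors to the Golgi for cleavage, and the released factors activate the sterol and fatty acid enzymes, whereas Insig1 and Insig2 hold Scap back when sterols are plentiful. Surplus sterol is handled by the opposite arm, in which oxysterol-bound LXRs induce the exporters Abca1 and Abcg1 and also Srebf1, the SREBP gene most closely tied to fatty acid synthesis.

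Promoter sequences of 28 of the 37 members were matched in RefSeq (GRCm38.p6), as 37 windows reaching from 250 bases before to 50 bases after an annotated start. The sterol regulatory element searched, TCACNCCAC on either strand, was present in 1 of these 37 windows, that of Hmgcs1, and in 1.24% of all 32851 windows. The CCAAT letters bound by NF-Y, a partner of SREBPs, were found on either strand in 22 of the 37 member windows and in 37.4% of all windows. The GGGCGG letters of the Sp1 site were found in 24 member windows against 35.7% of all, and the E box CACGTG in 8 against 7.15% of all, and no match of these motifs overlapped the Hmgcs1 sterol element. The LXR direct repeat DR4 in its strict form was found in 0 member windows and in 0.0152% of all. The windows of 3 members are printed. They belong to the only matched member with the sterol element searched and to members whose expression differed between groups. Each runs 5′ to 3′ along the gene's strand, with sterol element and CCAAT letters (either strand) in capitals. The window of Hmgcs1, which makes the precursor of mevalonate, spans chr13:119690101-119690400 (plus strand). That of Srebf2, the SREBP that drives sterol synthesis, spans chr15:82147019-82147318 (plus strand), and that of Acly, which supplies cytosolic acetyl-CoA, spans chr11:100527951-100528250 (minus strand).
Hmgcs1: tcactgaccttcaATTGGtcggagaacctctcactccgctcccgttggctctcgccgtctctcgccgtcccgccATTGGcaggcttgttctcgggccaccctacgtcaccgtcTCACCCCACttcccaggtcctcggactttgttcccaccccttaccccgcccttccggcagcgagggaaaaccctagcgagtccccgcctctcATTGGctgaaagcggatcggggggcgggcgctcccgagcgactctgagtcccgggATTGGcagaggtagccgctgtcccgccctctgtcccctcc
Srebf2: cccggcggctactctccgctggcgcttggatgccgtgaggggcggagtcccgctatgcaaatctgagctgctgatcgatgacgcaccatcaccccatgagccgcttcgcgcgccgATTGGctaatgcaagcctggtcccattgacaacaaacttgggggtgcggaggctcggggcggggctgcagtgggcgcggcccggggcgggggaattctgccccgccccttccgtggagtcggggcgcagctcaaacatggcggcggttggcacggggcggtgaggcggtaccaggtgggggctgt
Acly: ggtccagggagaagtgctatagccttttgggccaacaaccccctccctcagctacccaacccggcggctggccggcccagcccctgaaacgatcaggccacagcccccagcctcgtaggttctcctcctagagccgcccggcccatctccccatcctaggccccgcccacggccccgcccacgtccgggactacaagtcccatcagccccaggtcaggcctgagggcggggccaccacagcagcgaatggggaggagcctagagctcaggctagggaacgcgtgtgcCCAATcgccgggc
In the Hmgcs1 window the element read TCACCCCAC and began 137 bases before the start, among 4 CCAAT matches. The Srebf2 and Acly windows held 1 CCAAT match each. These matches describe letters only, and binding was not measured. Variants of the sterol element were not searched, nor were members without a matched window.

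Levels of different genes were compared as TPM, the transcript share of a library after division by transcript length. In wildtype B cells the regulator Srebf2 was the most abundant member, with 84.4 ± 7.35 TPM (SD, n = 3), ahead of the stearoyl-CoA desaturase Scd1 with 62.6 ± 8.40 TPM and the LXR gene Nr1h2 with 60.9 ± 11.4 TPM. The spreads of Scd1 and Nr1h2 overlapped. On the standard reference, which includes untranslated regions, Srebf2 was again the highest member with 107 ± 7.69 TPM, followed by Nr1h2 with 74.9 and Scd1 with 74.7 TPM. Fdps, which makes farnesyl diphosphate, and Pmvk, phosphomevalonate kinase, followed at 48.2 ± 7.72 and 47.0 ± 3.64 TPM on the coding reference and did not differ beyond their spread there. On the standard reference they stood at 45.2 ± 7.17 and 31.4 ± 6.18 TPM with Srebf1 between them at 42.7 TPM, and Fdps had only 6 to 52 reads per library in the deposited whole counts. The squalene epoxidase gene Sqle, a rate-controlling step of sterol synthesis, stood at 5.28 ± 1.18 TPM, and the macrophage-associated LXR gene Nr1h3 at 2.42 ± 1.18 TPM. Acacb was the lowest of the 37 in wildtype cells, at 0.00313 ± 0.00542 TPM.

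**Figure D1:**
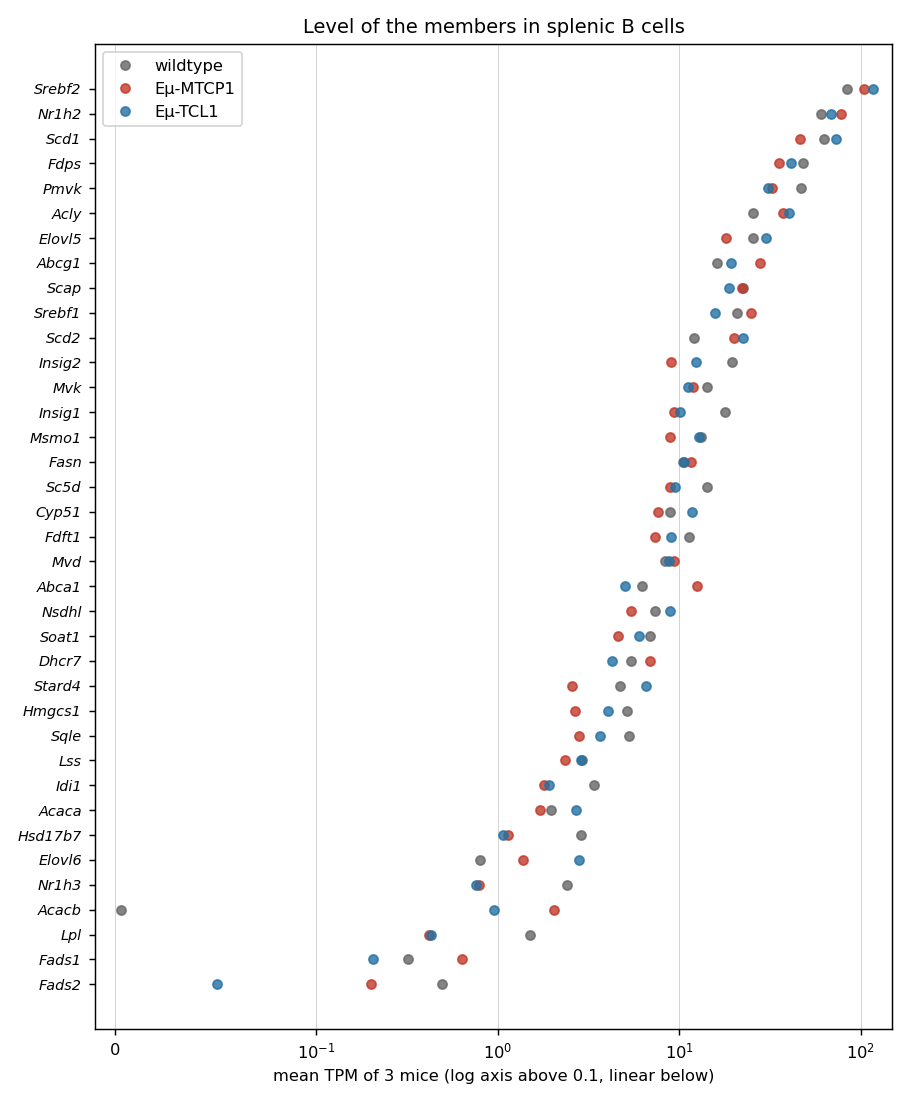
Mean TPM of each of the 37 members in the 3 mice of each group, ordered from the highest (top) to the lowest mean over all mice, on an axis that is logarithmic above 0.1 and linear below. Srebf2 is at the top in every group. Acacb in wildtype (0.00313 TPM) is the lowest group mean, and Fads2 in Eµ-TCL1 (0.051 TPM) also lies below 0.1.

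Each model was then compared with wildtype to see which lipid genes differed in the leukemic B cells. Differences were tested with edgeR's quasi-likelihood test on counts normalized across all 9 libraries, with Benjamini-Hochberg adjustment over the 11165 genes tested, and a gene was called at an adjusted p under 0.05. In Eµ-MTCP1 mice 1 of the 35 tested members was called higher, Acacb, against 5.49% of all tested genes, and 0 were called lower, against 3.99% of all. In Eµ-TCL1 mice 1 member was called higher, again Acacb, against 5.07% of all tested genes, and 0 lower, against 4.13%. At an unadjusted p under 0.05 there were 9 of the 35 members in the Eµ-MTCP1 comparison, against 25% of all tested genes, and 6 in that of Eµ-TCL1, against 25.1% of all. DESeq2 called more genes throughout, with 5 members higher in Eµ-MTCP1 against 8.4% of all genes and 4 in Eµ-TCL1 against 8.32%, and 0 members lower in either against 6.42% and 6.94% of all. The median log2 fold change of the tested members was -0.02 for Eµ-MTCP1 and 0.22 for Eµ-TCL1, beside -0.02 and -0.01 over all tested genes. The Eµ-TCL1 median depended on the counting, at -0.00054 on the deposited whole counts and 0.068 with transcript length offsets, and was 0.099 without B4376.

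With the 6 transgenic mice set against the 3 wildtype mice, 4 members rose, Acacb, Acly, Scd2 and Srebf2, against 6.95% of all tested genes. In this contrast 0 members were called lower, against 6.16% of all, and DESeq2 called the same 4 members higher, against 10.4% of all genes, and 0 lower, against 8.5%. The unadjusted p was under 0.05 for 7 of the 35 members, against 29.1% of all tested genes. The same wildtype mice entered all 3 contrasts, which are therefore not independent of each other.

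**Figure D2:**
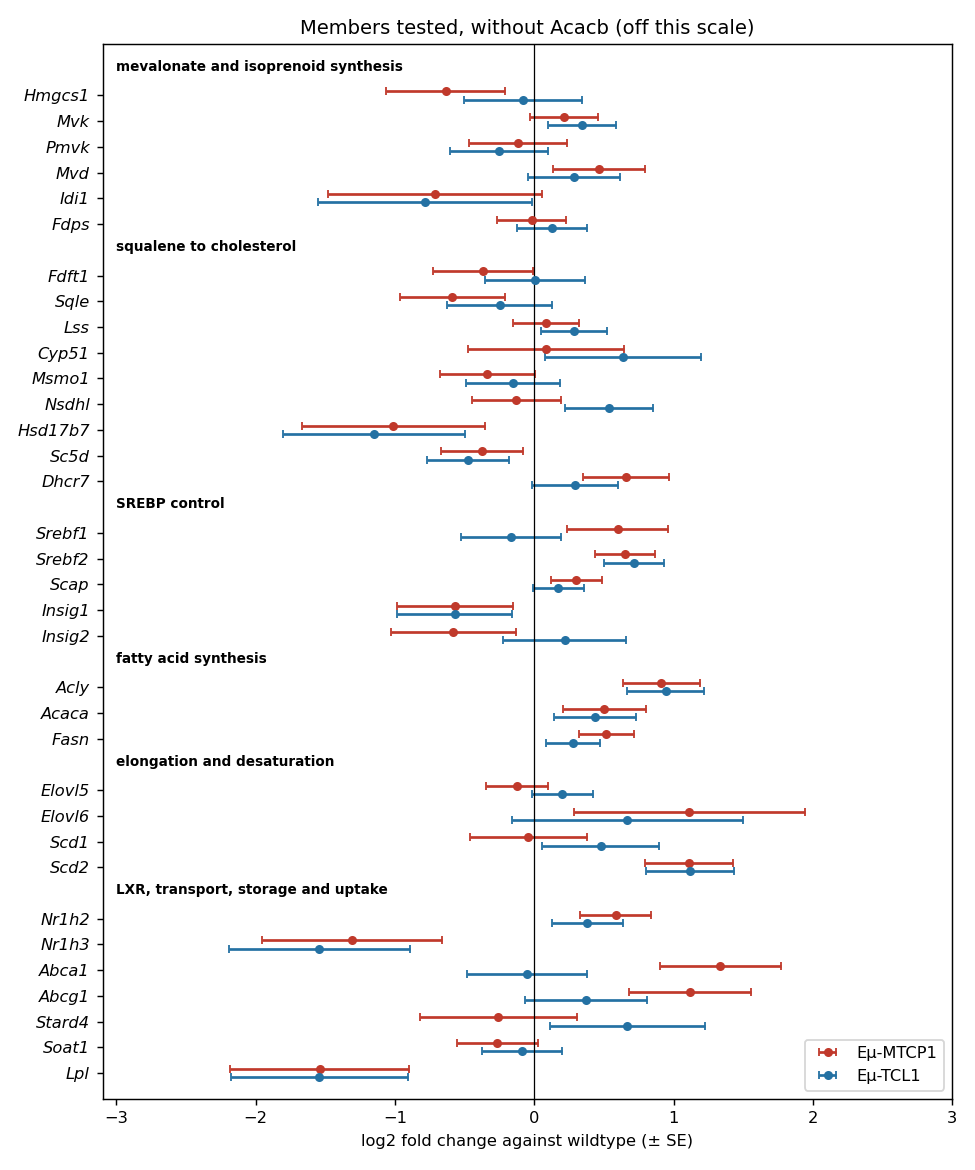
Log2 fold change against wildtype with its SE (horizontal bars) for 34 tested members by role, for Eµ-MTCP1 (red) and Eµ-TCL1 (blue), 3 mice per group. Acacb, at 9.16 and 8.03, lies off the axis, the 3 other fatty acid synthesis genes lie right of 0 in both models, and the sterol enzymes lie on both sides of 0.

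Fatty acid synthesis held the largest difference of the whole set. Acacb encodes acetyl-CoA carboxylase beta, the form bound to the outer mitochondrial membrane, whose malonyl-CoA restrains the entry of fatty acids into mitochondria. It had 0, 0 and 1 reads in wildtype mice Z2754, Z2755 and Z2785. In the Eµ-MTCP1 mice it had 98 reads in Z2551, 50 in Z2606 and 478 in Z2641, and in the Eµ-TCL1 mice 124 reads in B4376, 109 in B4437 and 114 in C1594. All 6 transgenic mice thus lay far above all 3 wildtype mice, and the Eµ-TCL1 mice lay close together while those of Eµ-MTCP1 spread widely.

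In normalized units Acacb reached 16.1, 7.09 and 78.9 CPM in Z2551, Z2606 and Z2641 and 17.1, 13.4 and 15.9 CPM in B4376, B4437 and C1594. Set against a floor of 3 reads per wildtype library, a mean of 0.383 CPM, Acacb was at least 88.8-fold higher in Eµ-MTCP1 and at least 40.4-fold higher in Eµ-TCL1. The first bound rested on Z2641, without which it was 30.2-fold, and for the lowest mouse of each model the bounds were 18.5-fold and 34.9-fold. The fitted log2 fold change was 9.16 ± 1.25 (SE) with an edgeR adjusted p = 0.0015 for Eµ-MTCP1, and 8.03 ± 1.26 with an edgeR adjusted p = 0.00321 for Eµ-TCL1. These fitted values depend on how the test treats the wildtype zeros and are no bounds. The call was kept under each of the 15 alternatives run for either model, including the fit without both libraries high in neutrophil genes, which gave edgeR adjusted p = 0.00385 and 0.00158.

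The Acacb reads were not spread evenly over its annotated transcripts. The gene lies at chr5:114146535-114250761 on the plus strand in GENCODE M21 (GRCm38), and the coding reference placed 99.9% of its reads on ENSMUST00000102582.7, the only long Acacb transcript that this reference holds. The standard reference offers 5 Acacb transcripts, and there 97.7% of the reads fell on ENSMUST00000143276.1 and 0 on ENSMUST00000102582.7. ENSMUST00000143276.1 is annotated as a retained-intron transcript, with 41 exons at chr5:114199779-114250759, and it begins after 13 of the 53 exons of the full-length transcript. By mouse it took 136 estimated reads in Z2551, 61 in Z2606, 650.3 in Z2641, 164 in B4376, 138 in B4437 and 133 in C1594, against 0, 0 and 2 in the wildtype mice. On that reference the reads of both models were thus assigned to the part of the gene downstream of its start. This split was looked up after the difference was seen, reads shared by overlapping transcripts are divided by estimation, and no Acacb promoter is printed since the RefSeq window lies at the start of another transcript, ENSMUST00000031583.14, on which 0.855% of the reads of the standard reference fell.

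Acly, ATP citrate lyase, links both pathways, since its acetyl-CoA feeds sterols and fatty acids alike. It stood at 104, 194 and 185 CPM in wildtype mice Z2754, Z2755 and Z2785, at 248, 372 and 290 CPM in Eµ-MTCP1 mice Z2551, Z2606 and Z2641, and at 241, 320 and 371 CPM in Eµ-TCL1 mice B4376, B4437 and C1594. The lowest transgenic mouse exceeded the highest wildtype mouse. Across both models Acly rose by 0.93 ± 0.25 on the log2 scale, with an edgeR adjusted p = 0.0331. Within each model the difference was of the same size, 0.91 and 0.94, but did not pass, with edgeR adjusted p = 0.066 and 0.0592. Without wildtype mouse Z2754, the lowest of all, the pooled difference was 0.68 with an edgeR adjusted p = 0.119.

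The other 2 fatty acid synthesis genes were not called. Fasn, the fatty acid synthase, had the lowest log2 fold change of the role in the pooled contrast, 0.40 ± 0.17 with an edgeR adjusted p = 0.157. It measured 128, 148 and 172 CPM in Z2754, Z2755 and Z2785, 166, 235 and 240 CPM in Z2551, Z2606 and Z2641, and 166, 183 and 193 CPM in B4376, B4437 and C1594, so that the groups overlapped. Acaca, the cytosolic counterpart of Acacb, ranged from 12.7 to 19.3 CPM in wildtype mice and from 15.8 to 28.7 CPM in transgenic mice, with a pooled log2 fold change of 0.47 and an edgeR adjusted p = 0.266. All 4 genes of this role had a positive log2 fold change in both models, and 2 of the 4, Acacb and Acly, had transgenic groups that did not overlap wildtype in the pooled contrast, against 9.44% of all tested genes.

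**Figure D3:**
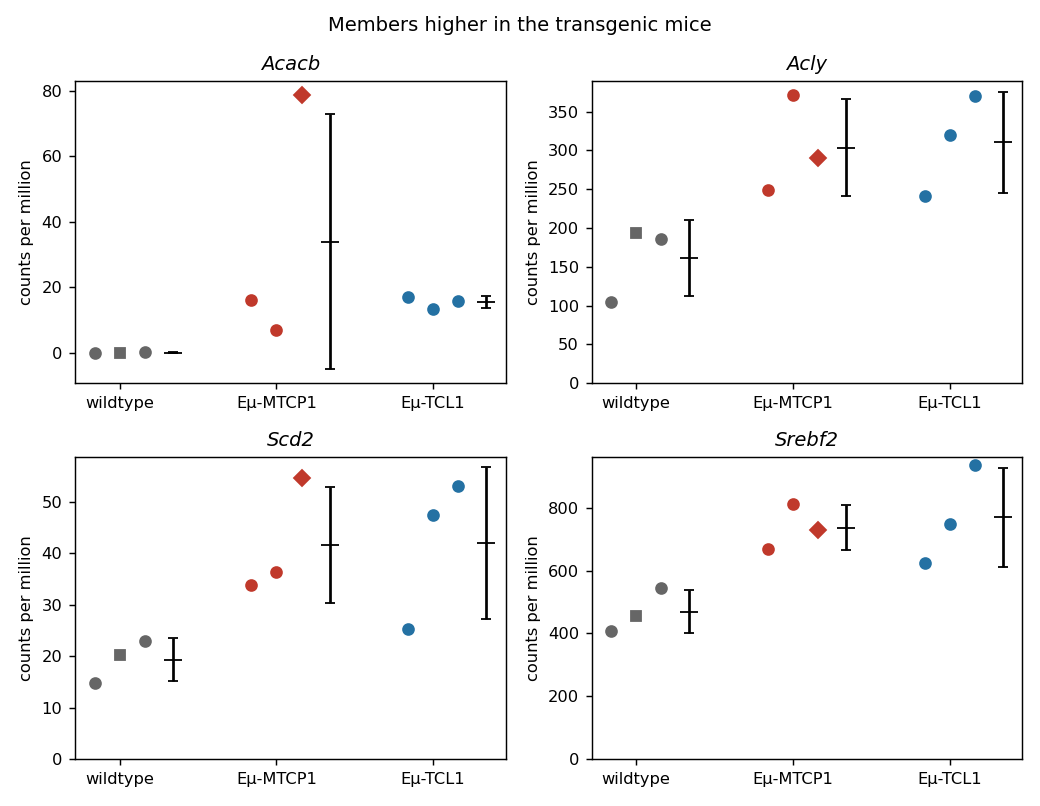
Normalized counts (CPM) of Acacb, Acly, Scd2 and Srebf2 in each mouse (points) with the group mean and SD (bars, n = 3); the square is wildtype mouse Z2755 and the diamond Eµ-MTCP1 mouse Z2641, the 2 libraries high in neutrophil genes. In every panel the 6 transgenic mice sit above the 3 wildtype mice, narrowly so for Scd2 in B4376 (25.3 against 22.9 CPM in Z2785).

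Among the elongation and desaturation genes, Scd2 rose. Scd2 is a stearoyl-CoA desaturase, which places the double bond of monounsaturated fatty acids. It measured 14.9, 20.2 and 22.9 CPM in wildtype mice Z2754, Z2755 and Z2785, 33.9, 36.3 and 54.6 CPM in Eµ-MTCP1 mice Z2551, Z2606 and Z2641, and 25.3, 47.5 and 53.2 CPM in Eµ-TCL1 mice B4376, B4437 and C1594. The pooled log2 fold change was 1.11 ± 0.28, about the same in each model at 1.11 and 1.12, with an edgeR adjusted p = 0.028 pooled and 0.0541 and 0.0528 within the models. Without B4376, the lowest of its group, the Eµ-TCL1 difference was 1.38 with an edgeR adjusted p = 0.0186.

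Scd1, the more abundant paralog, was not called. It ranged from 84.3 to 110 CPM in wildtype, from 54.3 to 154 CPM in Eµ-MTCP1 and from 76.2 to 219 CPM in Eµ-TCL1 mice, and its pooled log2 fold change was 0.22 with an edgeR adjusted p = 0.73. The difference between the paralogs was not itself tested, and reads from stretches they share could be divided between them. Elovl5, an elongase of polyunsaturated fatty acids, had the smallest log2 fold change of the role, 0.04 ± 0.19 with an edgeR adjusted p = 0.916. It stood at 28.7, 32.0 and 30.2 CPM in Z2754, Z2755 and Z2785, 27.9, 24.1 and 31.5 CPM in Z2551, Z2606 and Z2641, and 44.6, 30.3 and 29.5 CPM in B4376, B4437 and C1594. Its groups overlapped, B4376 being the highest on the coding reference, whereas wildtype mouse Z2754 had the most reads on the standard reference (759 against 589 in B4376) and in the deposited whole counts (721 against 559). Elovl6, which extends palmitate, was close to the limit of detection with 2 to 19 reads per library and a pooled log2 fold change of 0.89 (edgeR adjusted p = 0.455). Fads1 and Fads2, the desaturases of polyunsaturated fatty acids, had 0 to 10 and 0 to 19 reads and were left untested by the filter on low counts.

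Of the regulators, Srebf2 rose in the pooled contrast. It measured 409, 455 and 546 CPM in wildtype mice Z2754, Z2755 and Z2785, 670, 813 and 728 CPM in Eµ-MTCP1 mice Z2551, Z2606 and Z2641, and 625, 749 and 937 CPM in Eµ-TCL1 mice B4376, B4437 and C1594. All 6 transgenic mice exceeded all 3 wildtype mice, and the pooled log2 fold change was 0.68 ± 0.19 with an edgeR adjusted p = 0.0414. Within the models it was 0.65 and 0.71, with edgeR adjusted p = 0.0917 and 0.0671.

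The calls of Acly, Scd2 and Srebf2 were close to the threshold. Leaving out the lane 1 library, Z2755, the edgeR adjusted p became 0.0609 for Acly, 0.0975 for Scd2 and 0.148 for Srebf2, and leaving out any other wildtype mouse, or Eµ-TCL1 mice B4437 or C1594, also ended all 3 calls. Leaving out Z2606 ended the calls of Acly and Srebf2, and leaving out Z2641 or Z2551 ended that of Srebf2. Their log2 fold changes stayed between 0.58 and 1.25 in these fits. Without both libraries high in neutrophil genes, Z2755 and Z2641, the log2 fold changes were 1.07, 0.99 and 0.63 and the edgeR adjusted p 0.0693, 0.113 and 0.161. Acacb was the only member called in that fit and the only one called with lane 5 libraries alone, where its pooled adjusted p in edgeR was 0.0118.

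Insig1, itself a classical SREBP target, had the lowest log2 fold change of the regulators, at -0.57 ± 0.35 with an edgeR adjusted p = 0.311. It stood at 17.4, 14.96 and 18.1 CPM in Z2754, Z2755 and Z2785, 10.2, 18.4 and 5.28 CPM in Z2551, Z2606 and Z2641, and 8.29, 11.5 and 14.1 CPM in B4376, B4437 and C1594. The Eµ-TCL1 mice lay below all wildtype mice, whereas the Eµ-MTCP1 mice overlapped them and held the lowest of the 9 values. Z2606 was the highest mouse on the coding reference only, with 427 reads on the standard reference against 655 in wildtype mouse Z2754 and 449 against 644 in the deposited whole counts. Insig2 ranged from 4.68 to 10.1 CPM in wildtype and from 4.43 to 14.5 CPM in transgenic mice. Scap, the escort of the SREBPs, ranged from 119 to 170 CPM in wildtype and from 143 to 182 CPM in transgenic mice (pooled log2 fold change 0.24, edgeR adjusted p = 0.355).

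The rise of Srebf2 was not accompanied by a call of any sterol enzyme. None of the 15 enzymes of the mevalonate and sterol branches was called in any comparison by edgeR or DESeq2, and none had in edgeR an unadjusted p under 0.05. In the pooled contrast edgeR called 6.95% of all tested genes higher and 6.16% lower, and 29.1% had an unadjusted p under 0.05. Their role medians in the pooled contrast were -0.07 for mevalonate and isoprenoid synthesis and -0.18 for squalene to cholesterol, beside -0.02 over all tested genes.

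In the mevalonate branch the extremes were Mvd and Idi1. Mvd, which decarboxylates diphosphomevalonate, stood at 12.1, 12.7 and 18.7 CPM in Z2754, Z2755 and Z2785, 22.6, 24.5 and 12.9 CPM in Z2551, Z2606 and Z2641, and 21.3, 12.8 and 19.02 CPM in B4376, B4437 and C1594. Its groups overlapped, with a pooled log2 fold change of 0.38 ± 0.29 and an edgeR adjusted p = 0.417. Idi1, the isopentenyl diphosphate isomerase, stood at 7.92, 2.60 and 1.81 CPM in Z2754, Z2755 and Z2785, 1.80, 4.82 and 0.825 CPM in Z2551, Z2606 and Z2641, and 2.21, 1.59 and 3.36 CPM in B4376, B4437 and C1594. The pooled value of -0.75 ± 0.65 (edgeR adjusted p = 0.473) rested on Z2754, without which it was 0.13. Hmgcs1 ranged from 15.6 to 16.7 CPM in wildtype, from 4.29 to 17.03 CPM in Eµ-MTCP1 and from 11.2 to 18.4 CPM in Eµ-TCL1 mice. Fdps values depended on the counting, since Salmon gave it 312 to 737 reads per library and the deposited whole counts far fewer, so that its level is uncertain.

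Between squalene and cholesterol the extremes were Dhcr7 and Hsd17b7. Dhcr7, the last reductase of the pathway, stood at 9.53, 13.8 and 12.7 CPM in Z2754, Z2755 and Z2785, 23.6, 15.8 and 17.5 CPM in Z2551, Z2606 and Z2641, and 9.95, 15.8 and 18.3 CPM in B4376, B4437 and C1594. The 3 Eµ-MTCP1 mice lay above wildtype and the Eµ-TCL1 mice overlapped it, with a pooled log2 fold change of 0.48 ± 0.27 (edgeR adjusted p = 0.277). Hsd17b7, a sterol ketoreductase, stood at 4.83, 3.69 and 3.62 CPM in Z2754, Z2755 and Z2785, 0.983, 1.56 and 3.46 CPM in Z2551, Z2606 and Z2641, and 2.21, 0.736 and 2.52 CPM in B4376, B4437 and C1594. All transgenic mice lay below all wildtype mice, as for 9.14% of all tested genes, but at 6 to 39 reads per library the pooled difference of -1.08 ± 0.54 did not pass (edgeR adjusted p = 0.218). The separation was particular to this reference, since Z2641 had 70 reads on the standard reference against 57 to 127 in wildtype, and 65 in the deposited whole counts against 62 to 125, with pooled differences of -0.74 and -0.73.

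The sterol enzymes ranged widely between mice of one model. Summed over the 15 enzymes, the level was 276 to 307 CPM in wildtype, 200.3 to 343 CPM in Eµ-MTCP1 and 264 to 360 CPM in Eµ-TCL1 mice. Z2641 had the lowest sum and was the lowest of the 9 mice for 8 of the 15 enzymes, namely Hmgcs1, Mvk, Idi1, Fdps, Fdft1, Sqle, Cyp51 and Nsdhl, whereas it was the lowest for 18.7% of all tested genes. On the standard reference it was the lowest for 11 of the 15, and in the deposited whole counts for 10. Cyp51, the lanosterol demethylase, was 10.6 CPM in Z2641 against 49.9 CPM in Z2606 of the same line, and Sqle was 5.28 against 16.7 CPM. The highest level was in wildtype mouse Z2754 for 5 of the 15 enzymes and in C1594 for 4, Cyp51 among the latter at 65.2 CPM, whereas these mice were highest for 17.8% and 11.04% of all tested genes. Z2641 was picked out after the values were seen, and it also stood apart in 6 erythroid genes, with 225 CPM against 15.2 to 104 CPM in the other mice. The part that these, its neutrophil transcripts (2756 CPM) or its proliferation genes (2240 CPM over 12 genes, against 633 to 1287 CPM in the other mice) may have in its values was not tested.

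**Figure D4:**
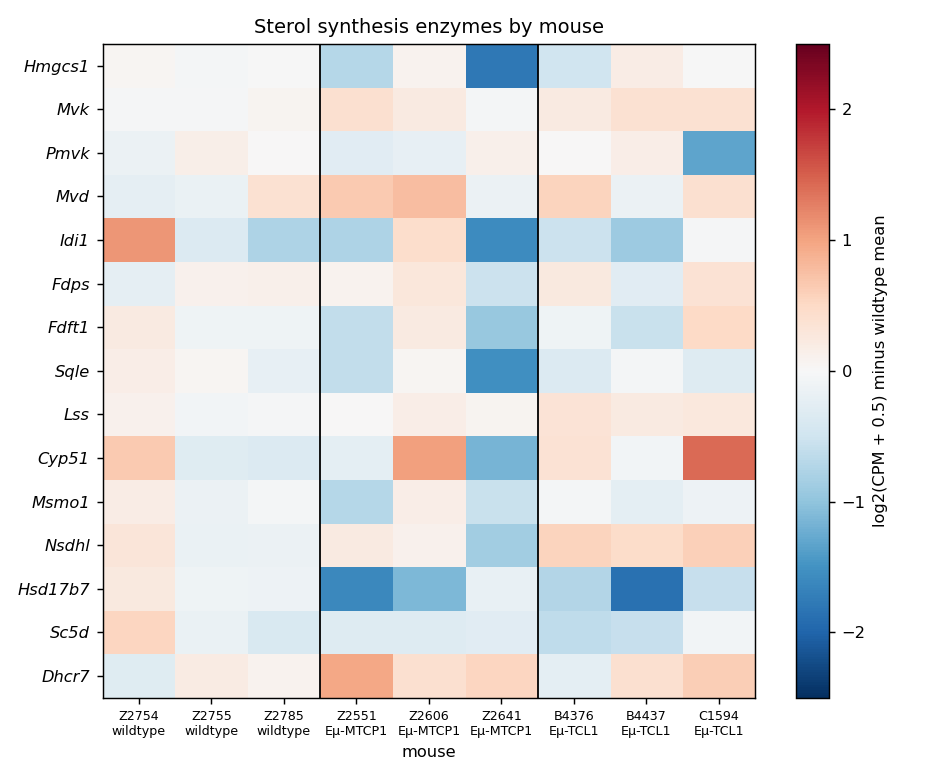
Level of the 15 sterol synthesis enzymes (rows) in each of the 9 mice (columns) as log2(CPM + 0.5) minus the wildtype mean, blue below and red above it. The column of Z2641 is blue for most enzymes, deepest for Hmgcs1, Idi1 and Sqle, while Z2606 of the same line and C1594 are red for Cyp51.

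The LXR targets Abca1, Abcg1 and Srebf1, set together after their values were seen, each had their highest level in Z2641, as did 16.1% of all tested genes. Some other LXR-responsive genes did not, Lpl being highest in Z2785, Scd1 in B4437 and Mylip, a gene outside the 37, in Z2755 (45.4 CPM against 36.0 CPM in Z2641). Among the remaining members, Z2641 was also the highest mouse for Fasn, Scd2, Acaca and Acacb. The cholesterol exporter Abca1 measured 90.7, 73.1 and 105 CPM in wildtype mice Z2754, Z2755 and Z2785, 96.0, 193 and 389 CPM in Eµ-MTCP1 mice Z2551, Z2606 and Z2641, and 67.4, 71.4 and 120 CPM in Eµ-TCL1 mice B4376, B4437 and C1594. Its log2 fold change in Eµ-MTCP1 was 1.33 ± 0.44, which did not pass in edgeR (adjusted p = 0.0866) and passed in DESeq2 (adjusted p = 0.0189). Without Z2641 it was 0.67 with an edgeR adjusted p = 0.281, and without Z2551 it was 1.70 with an edgeR adjusted p = 0.0237. In Eµ-TCL1 it was -0.05 with an edgeR adjusted p = 0.957.

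Srebf1 measured 105, 116 and 125 CPM in Z2754, Z2755 and Z2785, 113, 113 and 297 CPM in Z2551, Z2606 and Z2641, and 77.5, 99.5 and 131 CPM in B4376, B4437 and C1594. Only Z2641 stood apart, and the edgeR adjusted p was 0.332 for Eµ-MTCP1 and 0.815 for Eµ-TCL1. Abcg1, the exporter to high-density lipoprotein, had the highest log2 fold change of its role in the pooled contrast, 0.74 ± 0.39 with an edgeR adjusted p = 0.235. It stood at 49.0, 22.6 and 89.2 CPM in Z2754, Z2755 and Z2785, 97.8, 81.0 and 169 CPM in Z2551, Z2606 and Z2641, and 58.2, 66.0 and 83.2 CPM in B4376, B4437 and C1594. In Eµ-MTCP1 its log2 fold change was 1.12 with an edgeR adjusted p = 0.148, and without Z2785, the highest wildtype mouse, it was 1.69 with an edgeR adjusted p = 0.044, the highest of the alternatives, which reached down to 0.34 without both libraries high in neutrophil genes. The pooled value also moved, to 0.35 without Z2755, 0.33 on the deposited whole counts, 0.32 on the standard reference, 0.16 without both libraries high in neutrophil genes and 1.32 without Z2785, and it was called in none of these. The low value of Z2755 was particular to the coding reference, on which it had 208 reads against 1385 on the standard reference and 1146 in the deposited whole counts.

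Neither of the LXR genes themselves was called. Nr1h2, the widely expressed receptor, ranged from 72.4 to 98.4 CPM in wildtype, from 114 to 153 CPM in Eµ-MTCP1 and from 80.1 to 157 CPM in Eµ-TCL1 mice, with a pooled log2 fold change of 0.48 (edgeR adjusted p = 0.181). Nr1h3, named here after its values were seen, stood at 2.10, 4.34 and 8.15 CPM in Z2754, Z2755 and Z2785, 2.13, 2.70 and 0.990 CPM in Z2551, Z2606 and Z2641, and 2.21, 1.35 and 1.40 CPM in B4376, B4437 and C1594. Its pooled log2 fold change was -1.43 ± 0.53 with an edgeR adjusted p = 0.107, and -1.70 with an edgeR adjusted p = 0.0471 on the deposited whole counts. Without Z2785, the highest wildtype mouse, it was -0.84 with an edgeR adjusted p = 0.424. The transgenic mice overlapped the lowest wildtype mouse, Z2754.

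Lpl, the lipoprotein lipase that frees fatty acids from circulating triglyceride, had the lowest log2 fold change of all members in the pooled contrast on the coding reference. It stood at 2.10, 3.47 and 5.89 CPM in Z2754, Z2755 and Z2785, 0.983, 1.419 and 1.48 CPM in Z2551, Z2606 and Z2641, and 2.07, 0.981 and 0.839 CPM in B4376, B4437 and C1594. The groups did not overlap, though B4376 lay just below Z2754, and 6 to 39 reads per library lay behind these values. The difference was -1.54 ± 0.52 with an edgeR adjusted p = 0.0805 pooled, and -1.54 in each model with edgeR adjusted p = 0.169 and 0.164. On the standard reference, with 30 to 93 reads per library, the pooled difference was -0.78 with an edgeR adjusted p = 0.112, smaller than the -1.66 of Nr1h3 there, and on the deposited whole counts it was -1.46. Nr1h3 and Lpl are also expressed by macrophages, and the 17 macrophage and monocyte markers examined summed to 754 to 1320 CPM in wildtype, 561 to 1019 CPM in Eµ-MTCP1 and 387 to 1473 CPM in Eµ-TCL1 mice. Of these 17 markers 13 were tested, of which Cd68 was called higher and Spic lower in the pooled contrast. The pooled log2 fold change was below 0 for 9 of the 13, with a median of -0.98 over all 13, and above 0 for 4. Vsig4 was at 0 in every library and Mertk at 0 in Z2641 and all 3 Eµ-TCL1 mice. In such bulk samples fewer cells of a type and less RNA per cell cannot be told apart, and the part of macrophage transcripts in these differences was not tested.

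Stard4, a carrier of sterol between membranes, ranged from 2.57 to 6.19 CPM in wildtype and from 1.56 to 8.34 CPM in transgenic mice. Soat1, which esterifies cholesterol for storage, ranged from 17.7 to 26.1 CPM in wildtype and from 14.8 to 24.5 CPM in transgenic mice. Neither was called, with pooled edgeR adjusted p = 0.816 and 0.675.

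**Figure D5:**
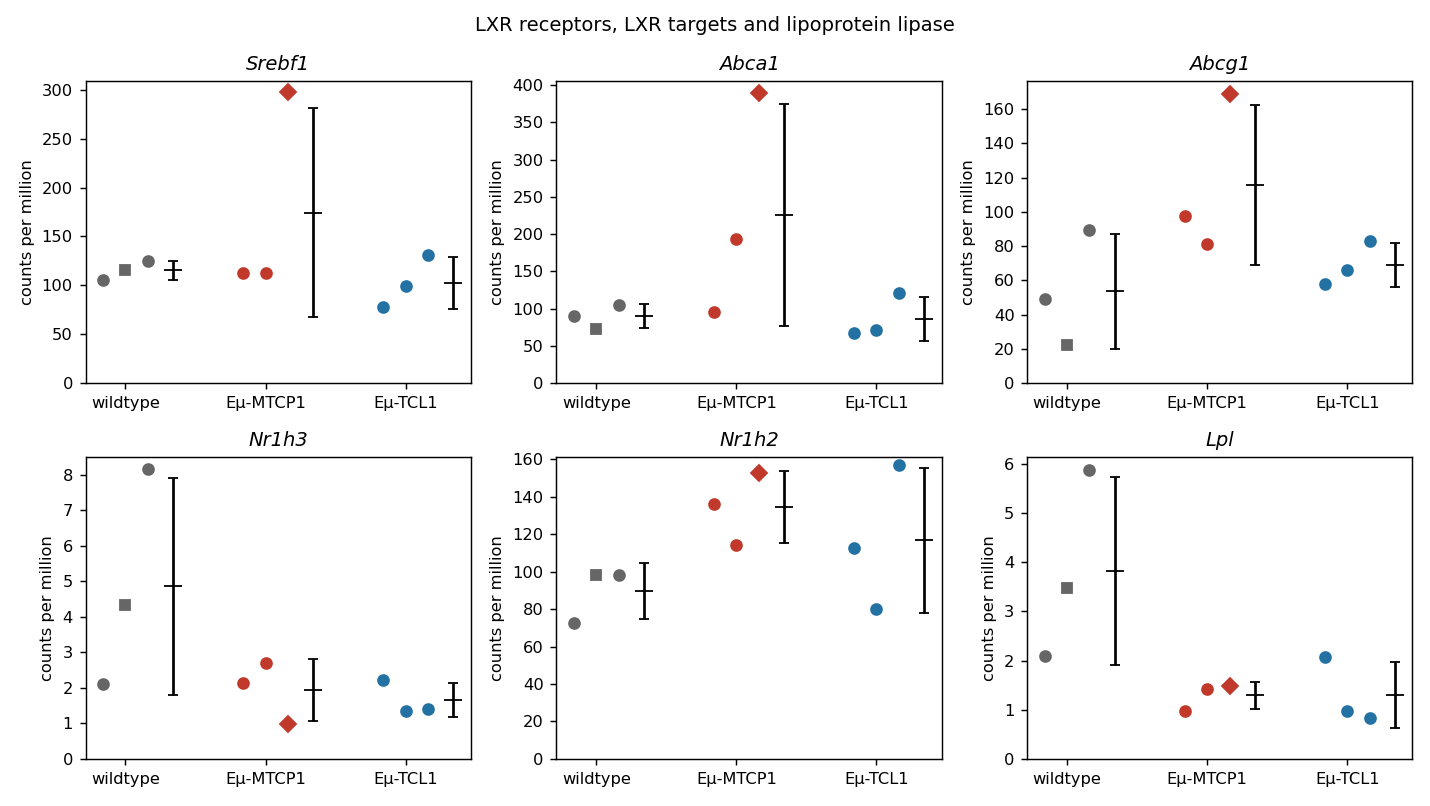
Normalized counts (CPM) of Srebf1, Abca1, Abcg1, Nr1h3, Nr1h2 and Lpl in each mouse (points) with the group mean and SD (bars, n = 3); the square is Z2755 and the diamond Z2641. Z2641 is the highest mouse for Srebf1, Abca1 and Abcg1 and the lowest for Nr1h3, and the Lpl values of all transgenic mice lie below those of wildtype.

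The models were also compared with each other, since both effects rest on the same wildtype mice. Of the 35 tested members 0 were called higher and 0 lower in Eµ-TCL1 against Eµ-MTCP1 by edgeR, against 0.0269% and 0.0179% of all tested genes. DESeq2 also called 0 members, against 40 genes higher and 33 lower among all genes. At an unadjusted p under 0.05 there was 1 member, against 6.42% of all tested genes. It was Abca1, with a log2 difference of -1.39 ± 0.44, a 95% interval of -2.35 to -0.42 and an edgeR adjusted p = 0.627. Acacb differed by -1.13, with a 95% interval of -2.70 to 0.43 and an edgeR adjusted p = 0.842, and without Z2641 the sign turned to 0.42. For Scd2, Acly and Srebf2 the differences were 0.01, 0.03 and 0.06, with 95% intervals of -0.68 to 0.70, -0.57 to 0.64 and -0.41 to 0.54. Of the 35 members 2, both sterol enzymes, had higher levels in Eµ-TCL1 without overlap between the models, against 5.42% of all tested genes, and 0 had lower ones, against 5.62%. Nsdhl was 19.01 to 20.7 CPM in Eµ-TCL1 against 7.26 to 15.9 CPM in Eµ-MTCP1, and Lss was 14.2 to 15.3 against 12.1 to 13.6 CPM, with edgeR adjusted p = 0.787 and 0.905.

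Genes of the same pathways outside the 37 were examined from 6 lists, to be read against the 6.95% of all tested genes called higher and the 6.16% called lower in the pooled contrast. None of the 6 tested other sterol synthesis genes was called by edgeR in any comparison. Among 12 other genes of SREBP control, Sp1, a transcription factor that acts beside SREBPs, rose in the pooled contrast by 0.82 ± 0.21 on the log2 scale (edgeR adjusted p = 0.031), from 12.9 to 14.2 CPM in wildtype to 19.2 to 28.5 CPM in transgenic mice. Sp1 was not called in Eµ-MTCP1 or Eµ-TCL1 alone (edgeR adjusted p = 0.0557 and 0.0661). Of 12 tested genes of sterol uptake and transport 1 was higher and 1 lower in the pooled contrast. Mylip, the LXR-induced ligase that degrades lipoprotein receptors, fell by 0.66 (edgeR adjusted p = 0.0342), and Abca7, a lipid exporter, rose by 0.60 (edgeR adjusted p = 0.0376). Each was called in 1 model only. Mylip was -0.95 in Eµ-TCL1 (edgeR adjusted p = 0.0189) and -0.37 in Eµ-MTCP1 (edgeR adjusted p = 0.298), where Z2641 at 36.0 CPM lay within wildtype (35.8 to 45.4 CPM). Abca7 was 0.74 in Eµ-MTCP1 (edgeR adjusted p = 0.0337) and 0.46 in Eµ-TCL1 (edgeR adjusted p = 0.154).

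Of 11 other tested genes of fatty acid synthesis and desaturation 1 was called. Elovl1, an elongase of very long saturated chains, rose in both models, from 65.3 to 73.8 CPM in wildtype to 97.5 to 120 CPM in Eµ-MTCP1 and 108 to 118 CPM in Eµ-TCL1 mice, by 0.61 and 0.69 on the log2 scale with edgeR adjusted p = 0.0398 and 0.0227. Of 22 tested genes of fatty acid oxidation 1 was higher and 1 lower in the pooled contrast. Eci1, an enoyl-CoA isomerase of mitochondrial oxidation, rose by 0.76 (edgeR adjusted p = 0.0438). It rose by 1.08 in Eµ-TCL1 (edgeR adjusted p = 0.0214) and by 0.45 in Eµ-MTCP1 (edgeR adjusted p = 0.278), where Z2641 at 60.9 CPM lay within wildtype (53.7 to 66.6 CPM). Ppargc1a, a coactivator of mitochondrial gene expression, fell by 3.61 ± 0.97 (edgeR adjusted p = 0.0352) from 3.71 to 5.13 CPM in wildtype to 0 to 1.31 CPM in transgenic mice. Ppargc1a was at 0 in Z2606, Z2641 and B4376, so the fitted value depends on these zeros and is no bound. It was not called in Eµ-MTCP1 or Eµ-TCL1 alone (edgeR adjusted p = 0.133 and 0.0854).

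Of 23 tested genes of lipid uptake, activation and droplets 3 rose and 0 fell in the pooled contrast. Dgat2, which completes triglyceride synthesis, rose by 1.93 ± 0.53 (edgeR adjusted p = 0.0369), from 2.72 to 5.10 CPM in wildtype to 5.61 to 27.6 CPM in transgenic mice. Plin3, a lipid droplet coat protein, rose by 1.51 ± 0.33 (edgeR adjusted p = 0.0146), although Z2641 with 78.7 CPM lay just below wildtype mouse Z2785 with 80.3 CPM. Abhd5, the coactivator of triglyceride lipase, rose by 0.88 ± 0.25 (edgeR adjusted p = 0.047).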

How the data were processed

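Estimated counts per transcript (Salmon 1.0.0, GENCODE release 23 per the methods) were made by the authors for each library on 2 references, a standard one and one of coding sequences that also held human MTCP1 and TCL1 transcripts. TPM values were made by the authors in the same runs. Whole counts per gene were deposited in 2 tables, one with entries emptied by their CLEAR coverage filter; the notes also list HISAT2 2.0.6 and featureCounts. Normalized log2 values came from the authors' DESeq2 fit, whose comparison columns (fold changes and p-values) were not used; 0 sample columns were left unmapped.

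Estimated counts of the coding reference were joined to genes with GENCODE M21, summed and rounded; at most 0.291% of reads were not joined. The 9 libraries were fitted together in edgeR 4.0.16 (R 4.3.3; TMM, filterByExpr, quasi-likelihood), with DESeq2 1.42.0 as an alternative, after a test on simulated data. Floors are 3 reads and cover counting error only. Named were members called in any comparison and the highest and lowest log2 fold change per role. The members and lists were chosen with earlier results of these data known. Figures used matplotlib 3.10.9. The labels name both a SMARTer/Nextera XT and a TruSeq stranded preparation.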

Additional observations from a re-analysis of the deposited data

How the results depend on the processing

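Acacb was called in both models and in the pooled contrast under every alternative run, and 0 members were called in the direct comparison of the models under any of them. The number of members called higher against wildtype rose from 1 in Eµ-MTCP1 to 5 with DESeq2 and to 2 without the expression filter, with the deposited whole counts, with the standard reference and with only the groups compared, and was 1 to 2 when 1 mouse was left out. In Eµ-TCL1 it rose from 1 to 4 with DESeq2, to 3 without the filter, with the deposited counts and with transcript length offsets, and to 2 with the standard reference, and was 1 to 2 when 1 mouse was left out. In the pooled contrast the 4 members called higher became 3 without the expression filter (Srebf2 at an edgeR adjusted p = 0.0543), 2 with library size scaling alone (Acly at 0.0711 and Srebf2 at 0.0893) and 1 without both libraries high in neutrophil genes, an alternative chosen after seeing the data, and 1 to 4 when 1 mouse was left out; 1 member was called lower with library size scaling (Lpl) and 1 with the deposited counts (Nr1h3), against 0 when any 1 mouse was left out. The median log2 fold change of the members ranged over the alternatives from -0.25 to 0.16 for Eµ-MTCP1, from -0.00054 to 0.26 for Eµ-TCL1 and from 0.022 to 0.24 pooled, the last lowest with library size scaling. The cause of these changes was not tested. Calls over all genes moved as well, from 613 higher in Eµ-MTCP1 to 933 with DESeq2, 634 without the filter, 849 with the deposited counts, 852 with the standard reference and 508 with only the groups compared, and from 566 in Eµ-TCL1 to 924 with DESeq2, 618 without the filter, 849 with the deposited counts, 790 with the standard reference and 547 with transcript length offsets. In the pooled contrast 776 genes higher and 688 lower became 561 and 1160 with library size scaling and 770 and 737 without the filter. They became 1085 and 952 with the deposited counts and 440 and 448 without both libraries high in neutrophil genes. With 1 mouse left out the genes called higher were 272 to 526 for Eµ-MTCP1, 259 to 490 for Eµ-TCL1 and, from 776, 348 to 805 pooled, each lowest without wildtype mouse Z2754. Library size scaling moved the median of all genes by -0.23 in Eµ-MTCP1, -0.14 in Eµ-TCL1 and -0.19 pooled, and with it 32.6% of all pooled calls were higher, against 53.0% with TMM (34.9% against 57.9% in Eµ-MTCP1 and 43.0% against 55.1% in Eµ-TCL1).

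Of 493 recomputed log2 fold changes of named members 13 changed sign, each of a member not called in that comparison. Pooled Elovl5 was -0.15 with library size scaling, -0.27 with the deposited counts, -0.24 with the standard reference, -0.0038 without both neutrophil-high libraries, and -0.071 to 0.092 when 1 mouse was left out. Pooled Idi1 was -1.27 to 0.13, Abca1 in Eµ-TCL1 -0.37 to 0.10 and the direct difference of Acacb -1.62 to 0.42 when 1 mouse was left out, the last being 0.43 without both neutrophil-high libraries. No paired analysis was possible because the labels tie no mouse of one group to a mouse of another. The 3 mice per group and the 2 to 54 reads for Hsd17b7, Lpl, Nr1h3 and Elovl6 limit what could be detected.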
